A study of Mus musculus with 19 samples.

Results

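The 4 Id genes, Id1, Id2, Id3 and Id4, were followed by gene symbol through raw counts of 19 mouse RNA-seq libraries, as 4 of the 23420 genes listed for each library. They were 14 iPSC libraries from 12 clones, and 1 library from each of 3 ESC and 2 EpiSC lines. The family was chosen by the counts of Id2, which were present in the iPSC and 0 in the ESC, so the values of iPSC against ESC, and of Id2 in any comparison of cell states, are given as a description without a test.

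The NOD/ShiLtJ iPSC (females, clones 7 and 52, and males, clones 3 and 35) and the WSB/EiJ iPSC (males, clones 12 and 25, and females, clones 23 and 28) were derived and kept in 2iS, a medium with serum, LIF and inhibitors of the kinases GSK3B and MEK. The 129S1/SvImJ iPSC were derived in ESC/LIF, serum medium with LIF and without the inhibitors (males, clones 1 and 17, and females, clones 5 and 8), and both male clones were sequenced again after a move to 2iS, at passages 31 and 30 in place of 21 and 20. The other iPSC were at passages 16 to 26. All iPSC were made with a constitutive vector carrying the reprogramming factors, which was not removed, and were depleted of feeder fibroblasts before RNA was taken. The male ESC, 1 line each of NOD/ShiLtJ, WSB/EiJ and 129S1/SvImJ at passage 6, were kept in serum with LIF and both inhibitors. The male EpiSC were a NOD/ShiLtJ line at passage 38 and a 129 line at passage 16. Each ESC and EpiSC strain is therefore 1 line, and RNA from all cells came from frozen pellets.

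Id proteins are helix-loop-helix proteins without a DNA-binding region. They pair with E proteins, the shared partners of tissue-specific basic helix-loop-helix (bHLH) factors, and so keep those factors off DNA. Their genes are classic targets of BMP signalling through SMAD proteins, and in mouse ESC grown with serum or BMP and LIF, Id proteins are known to hold back neural differentiation.

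The stretch of 120 coding bases (40 codons) in which the 4 genes are most alike, which codes for most of the helix-loop-helix, shows what the family shares and how far reads from its members can be told apart. It is printed 5′ to 3′ on the coding strand, from the GENCODE M21 transcripts on GRCm38, with the bases that all 4 genes share in capitals.
Id1: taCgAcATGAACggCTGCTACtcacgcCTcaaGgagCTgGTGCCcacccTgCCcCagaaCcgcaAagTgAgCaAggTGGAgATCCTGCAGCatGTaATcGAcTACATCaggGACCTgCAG
Id2: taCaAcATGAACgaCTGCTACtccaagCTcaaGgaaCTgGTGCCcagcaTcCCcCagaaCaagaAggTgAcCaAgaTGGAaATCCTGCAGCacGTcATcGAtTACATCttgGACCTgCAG
Id3: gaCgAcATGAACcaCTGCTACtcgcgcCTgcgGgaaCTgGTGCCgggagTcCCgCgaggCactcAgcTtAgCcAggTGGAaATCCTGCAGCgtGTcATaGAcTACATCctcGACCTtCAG
Id4: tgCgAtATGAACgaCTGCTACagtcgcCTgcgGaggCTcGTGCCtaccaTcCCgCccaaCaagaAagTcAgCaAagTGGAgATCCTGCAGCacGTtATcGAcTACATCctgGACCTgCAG
In this stretch 69 of the 120 bases were shared by all 4 genes. Id1 and Id2 were the closest pair, with 81.7% identity, and the other pairs had 70.8% to 77.5%. The longest run of identical bases between any pair of the 4 transcripts was 19 bases, shared by Id2 and Id3, and is shorter than the reads that the study's methods describe. The stretch lies within 1 exon of each gene, at chr2:152736518-152736637 on the plus strand for Id1, chr12:25095783-25095902 on the minus strand for Id2, chr4:136144002-136144121 on the plus strand for Id3 and chr13:48261693-48261812 on the plus strand for Id4.

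Counts on the family were low in all libraries. Between 92996 and 567432 read pairs were counted on genes per library, so that 3 counts, taken here as the limit that a count of 0 allows, equal 5.29 to 32.3 CPM (read pairs on a gene scaled to a gene total of 1000000). That was 1.15% to 1.74% of the uniquely aligned read pairs in 17 libraries and 5.59% and 5.62% in both NOD/ShiLtJ male iPSC. Of the 100 genes with most counts, 90% overlapped exons of a gene on the other strand in the 17 libraries and 38% in the NOD/ShiLtJ males, against 24.35% of all annotated genes in the files. The study made its libraries with a stranded mRNA kit, so the strand setting of the counting decides which read pairs are counted on a gene. That setting is not given in the sources used here, and whether a read pair counted on an Id gene came from its own strand cannot be told apart. Id1 (ENSMUSG00000042745.9, chr2:152736251-152737410, plus strand), Id2 (ENSMUSG00000020644.9, chr12:25093799-25097140, minus strand) and Id3 (ENSMUSG00000007872.3, chr4:136143497-136145755, plus strand) have no annotated exon on the opposite strand, and Id4 (ENSMUSG00000021379.2, chr13:48261228-48266026, plus strand) has 171 such bases. The NOD/ShiLtJ males are described apart below, as the study left them out of its comparisons of cell states. Naive markers summed to 1376 to 2406 CPM in the 12 other iPSC, 1098 to 1771 in the ESC and 10.4 to 13.6 in the EpiSC, where Zfp42, Klf4, Esrrb, Nr0b1, Dppa3 and Dppa5a were at 0. Fibroblast markers summed to 556 to 1238 CPM in the ESC, 40.7 to 198 in the EpiSC, 26.4 to 73.1 in the WSB/EiJ iPSC and 0 to 4.41 in the other 8 iPSC.

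**Figure D1:**
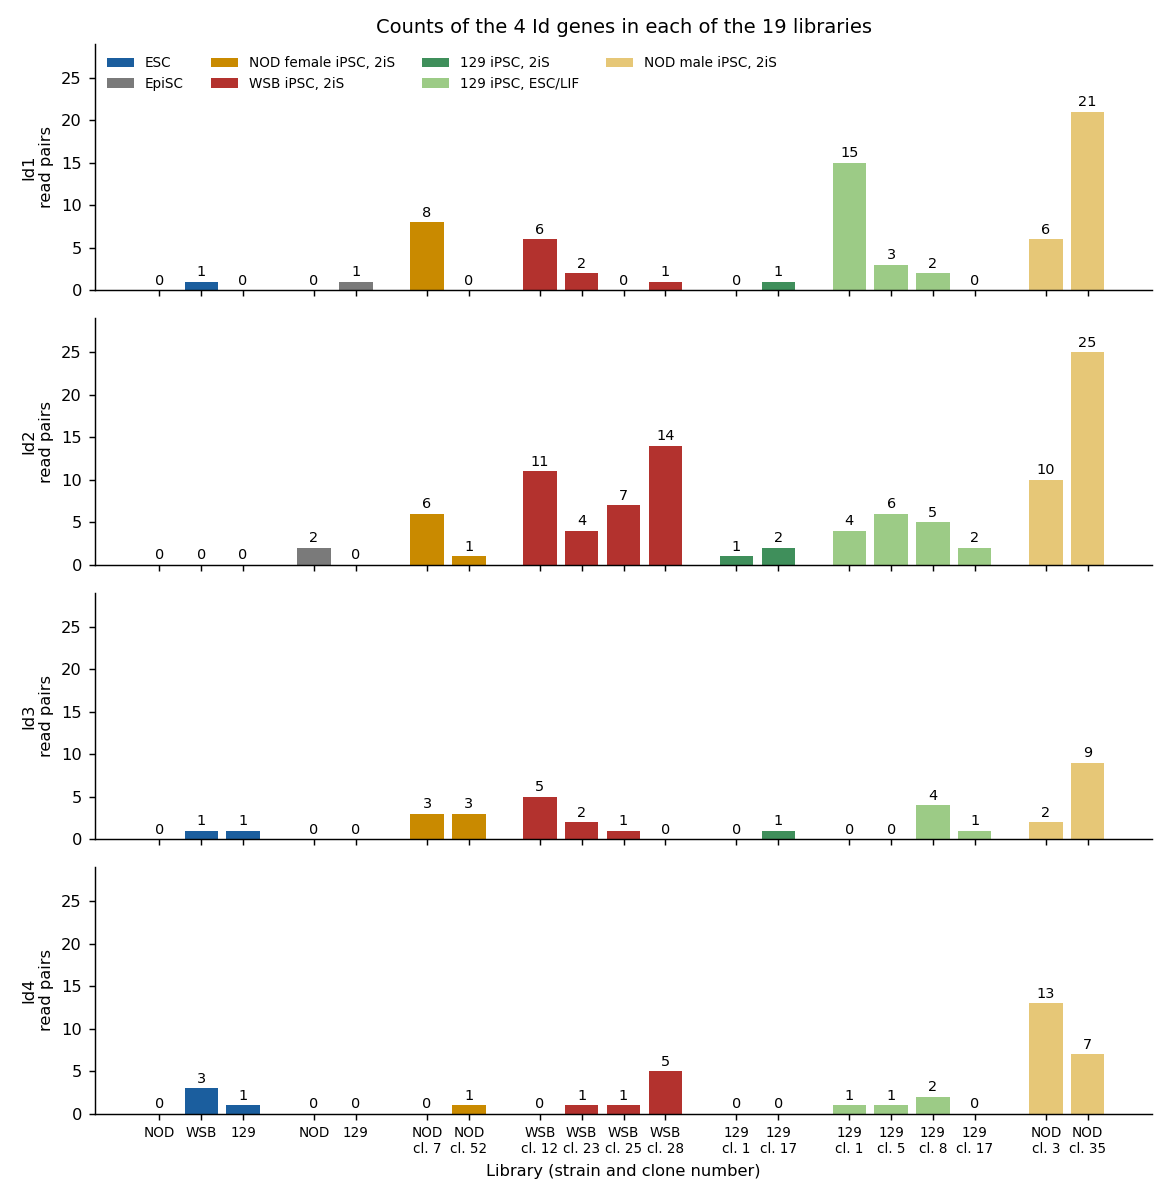
Raw counts (read pairs, vertical axis) of Id1 to Id4 in each of the 19 libraries, coloured by group; the number over each bar is the count. Id2 had at least 1 count in each iPSC and 0 in the 3 ESC, and the highest counts of Id1, Id2 and Id3 were in NOD/ShiLtJ male clone 35, where 5.59% of the aligned read pairs lay on genes.

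Id2 was the only member with a count in each of the 12 iPSC and the only one without a count in any ESC. Its raw counts were 6 and 1 in the NOD/ShiLtJ female iPSC (clones 7 and 52), 11, 4, 7 and 14 in the WSB/EiJ iPSC (clones 12, 23, 25 and 28), 4, 6, 5 and 2 in the 129S1/SvImJ iPSC in ESC/LIF (clones 1, 5, 8 and 17) and 1 and 2 in those in 2iS (clones 1 and 17). They were 0 in each of the 3 ESC, and 2 in the NOD/ShiLtJ and 0 in the 129 EpiSC. Together the 12 iPSC held 63 counts of Id2 and the ESC 0, where the ESC held 17.8% of the gene counts of both. The pooled level was 35.5 CPM in iPSC (exact 95% Poisson interval 27.3 to 45.5) and 0 in ESC (up to 9.60). Such intervals cover counting error only. The pooled iPSC level was 4.55-fold that of 3 counts over the 3 ESC, which is no lower bound, since the intervals allow a smaller ratio.

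The lowest iPSC, NOD/ShiLtJ clone 52 with 1 count, stood above the ESC by that single read pair, so that the ranges of iPSC and ESC separate by 1 count. Such a separation, each iPSC above each ESC, was present in 0.524% of all genes with a count. Per library after TMM normalization, Id2 had 36.9 ± 31.6 CPM (SD, n = 12) in iPSC, 0 in ESC (n = 3) and 4.97 ± 7.02 (SD, n = 2) in EpiSC. In ESC/LIF alone the iPSC exceeded the ESC by 25.9 CPM, in 2iS alone by 42.5, and without the 129S1/SvImJ clones in 2iS, which enter a second time, by 42.1. All iPSC in ESC/LIF were 129S1/SvImJ, and the WSB/EiJ iPSC held 36 of the 46 counts in 2iS. This split by medium is thus also one by strain, and an alternative without the WSB/EiJ iPSC was not run. Within 129S1/SvImJ, the only strain in both media, the order was the reverse. Mean Id2 there was 25.9 CPM in ESC/LIF and 11.3 in 2iS, and passage changed with the medium. With the conditions that the source names give in place of those of the titles, the difference between iPSC and ESC was -3.96 CPM, the opposite direction. Fibroblast markers, summed above, were lower in iPSC than in ESC where Id2 was higher, and their part in the difference was not tested. In bulk samples, fewer cells with a transcript and less of it per cell cannot be told apart.

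Id1, the best known BMP target of the family, had most of its counts in a few iPSC. It had 8 and 0 counts in the NOD/ShiLtJ female iPSC, 6, 2, 0 and 1 in the WSB/EiJ iPSC, 15, 3, 2 and 0 in the 129S1/SvImJ iPSC in ESC/LIF and 0 and 1 in those in 2iS, in the order of clones used for Id2. The NOD/ShiLtJ, WSB/EiJ and 129S1/SvImJ ESC had 0, 1 and 0, and the NOD/ShiLtJ and 129 EpiSC 0 and 1. So 8 of 12 iPSC had a count, clone 1 in ESC/LIF held 15 of the 38, and the ranges of iPSC, ESC and EpiSC overlapped. The pooled level was 21.4 CPM in iPSC (15.2 to 29.4), 2.60 in ESC (0.066 to 14.5) and 2.42 in EpiSC (0.061 to 13.5). The ratio of iPSC to ESC was 8.24 with a 95% counting interval of 1.39 to 334.

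Id3 had 3 and 3 counts in the NOD/ShiLtJ female iPSC, 5, 2, 1 and 0 in the WSB/EiJ iPSC, 0, 0, 4 and 1 in the 129S1/SvImJ iPSC in ESC/LIF and 0 and 1 in those in 2iS. The 3 ESC had 0, 1 and 1 and both EpiSC 0. Counts were thus found in 8 of 12 iPSC and 2 of 3 ESC, and the groups overlapped. Id3 pooled to 11.3 CPM in iPSC (6.89 to 17.4), 5.21 in ESC (0.63 to 18.8) and 0 in EpiSC (up to 8.94). For Id3 the ratio of iPSC to ESC was 2.17, with a counting interval of 0.527 to 19.

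Id4 went the other way in the means. Its counts were 0 and 1 in the NOD/ShiLtJ female iPSC, 0, 1, 1 and 5 in the WSB/EiJ iPSC, 1, 1, 2 and 0 in the 129S1/SvImJ iPSC in ESC/LIF, 0 and 0 in those in 2iS, 0, 3 and 1 in the ESC and 0 in both EpiSC. The WSB/EiJ lines held the highest count among iPSC (clone 28) and among ESC. The pooled level was 6.77 CPM in iPSC (3.50 to 11.8) and 10.4 in ESC (2.84 to 26.7), a ratio of 0.65 with a counting interval of 0.197 to 2.77. Without the WSB/EiJ ESC, the mean of Id4 was 4.23 CPM higher in iPSC in place of 3.18 CPM lower.

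The pooled ratios of iPSC to ESC were thus above 1 for Id1 and Id3 and below 1 for Id4, the libraries of iPSC and ESC overlapped for each of these members, and the counting intervals leave out the spread between clones. In the edgeR fit of 12 iPSC, 3 ESC and 2 EpiSC, 3986 genes passed the filter on low counts, among them Id2 and none of Id1, Id3 and Id4. Id2 passed only through WSB/EiJ clones 25 and 28, at 70.4 and 130 CPM before TMM normalization. Every other library of the fit was at 58.0 CPM or less. The fitted log2 fold change of Id2 from ESC to iPSC was 5.47, a value that depends on the prior count because the ESC are at 0. It is given without a test, since this contrast chose the family, and 6.22% of genes were called in it. In the same fit without the filter, the log2 fold changes were 2.56 for Id1, 0.96 for Id3 and -0.57 for Id4. The median over the 3986 tested genes was 0.05.

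**Figure D2:**
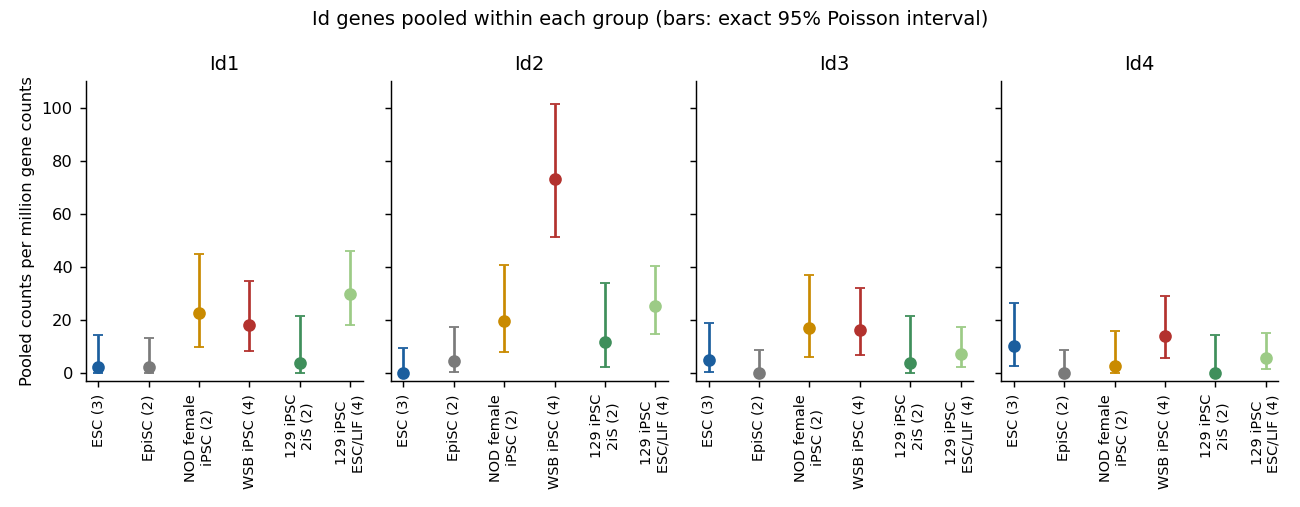
Pooled CPM (vertical axis) of each Id gene in ESC, EpiSC and the 4 groups of iPSC (number of libraries in brackets), with exact 95% Poisson intervals that cover counting error only. Id2 in WSB/EiJ iPSC lies at 73.1 CPM (51.2 to 101), while the intervals of the other members overlap across most groups.

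Against EpiSC, which are primed cells that in culture depend on activin and FGF in place of LIF, none of Id1, Id3 and Id4 passed the threshold. Mean Id1 was 16.7 ± 19.9 CPM (SD, n = 12) in iPSC and 3.61 ± 5.10 (SD, n = 2) in EpiSC, with p = 0.396 in a two-sided exact permutation test over 91 splits. Mean Id3 was 10.4 ± 9.14 CPM in iPSC and 0 in EpiSC (exact permutation p = 0.253), and Id4 was 7.34 ± 11.7 and 0 (exact permutation p = 0.374). The smallest p these groups allow is 0.011, and over the 22 permutation tests made on members the adjusted p of all 3 was 0.88. Fitted by edgeR without the filter, their log2 fold changes were 2.46 (standard error 1.15), 3.81 (1.67) and 3.20 (1.71), with adjusted p of 0.169, 0.131 and 0.234 over 16808 genes, of which 11.1% were called. Id2 had 63 counts in iPSC and 2 in EpiSC, a ratio of 7.33 with a counting interval of 1.95 to 61.9. Its range in EpiSC (0 to 9.93 CPM) overlapped that of the iPSC (5.93 to 118), and both EpiSC counts came from the NOD/ShiLtJ line.

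Between ESC and EpiSC the family was near the counting limit on both sides. Id1 had 2.82 ± 4.88 CPM (SD, n = 3) in ESC and 3.61 in EpiSC (exact permutation p = 1), Id3 had 4.89 ± 4.38 and 0 (p = 0.4), and Id4 had 10.5 ± 13.2 and 0 (p = 0.7), where 0.1 is the smallest p the 10 splits allow. No difference between 3 and 2 libraries could pass the threshold in this test. Taken as a sum, Id1 to Id4 had 133 counts in the 12 iPSC, 7 in the ESC and 3 in the EpiSC, or 75.0, 18.2 and 7.27 pooled CPM. This sum includes Id2, whose counts chose the family and which held 63 of those in iPSC and 0 of those in ESC. It is a description and says nothing on whether the other members follow Id2.

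Within iPSC, the means of the groups of strain and medium did not stand in the same order for all 4 members. Mean Id2 was 70.1 ± 33.9 CPM in WSB/EiJ iPSC (SD, n = 4), 25.9 ± 10.2 in 129S1/SvImJ iPSC in ESC/LIF (SD, n = 4), 18.3 ± 17.5 in NOD/ShiLtJ female iPSC (SD, n = 2) and 11.3 ± 4.18 in 129S1/SvImJ iPSC in 2iS (SD, n = 2), followed by EpiSC and ESC. Each neighbouring pair in this order overlapped, WSB/EiJ clone 23 at 39.0 CPM lying below 129S1/SvImJ clone 5 in ESC/LIF at 40.5. Before TMM normalization clone 23 lay above clone 5, at 41.8 against 40.4 CPM, and each WSB/EiJ iPSC was then above the 8 other iPSC, as in 0.984% of genes with a count. Id1 had its highest group mean in 129S1/SvImJ iPSC in ESC/LIF (23.5 ± 28.2 CPM), Id3 in NOD/ShiLtJ female iPSC (16.6 ± 1.75) and Id4 in WSB/EiJ iPSC (15.4 ± 18.4), and for Id1 and Id4 the SD exceeded that mean.

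**Figure D3:**
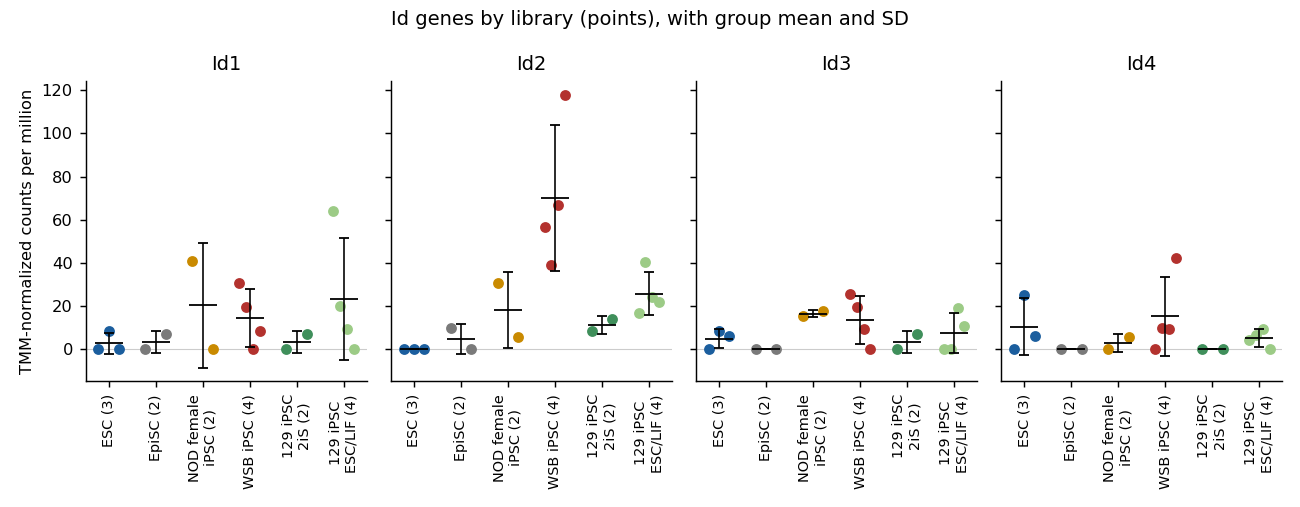
TMM-normalized CPM (vertical axis) of each Id gene in 17 libraries (points) by group, with the group mean (wide line) and SD (bars, which can reach below 0). For Id2, 3 of 4 WSB/EiJ iPSC lie above the other libraries, and the ESC lie at 0.

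The strains were compared among iPSC in 2iS, with normalization over the 12 iPSC. In these groups the NOD/ShiLtJ iPSC were females and the WSB/EiJ iPSC of both sexes. The 129S1/SvImJ iPSC were males, derived in ESC/LIF and at later passages. Strain cannot be told apart from sex, derivation medium and passage. For Id2 the mean was 72.5 CPM in WSB/EiJ and 18.9 in NOD/ShiLtJ females, and each of the 4 WSB/EiJ clones lay above both NOD/ShiLtJ clones, as in 4.75% of genes with a count. The two-sided exact permutation test gave p = 0.133, where 0.0667 is the smallest that 15 splits allow. Against 129S1/SvImJ iPSC in 2iS, at 11.7 CPM, the 4 clones were again all higher, as in 7.11% of genes with a count (exact permutation p = 0.133). No member passed the filter in this fit. Without it, edgeR gave Id2 a log2 fold change of 2.48 (standard error 0.76, adjusted p = 0.0746) against 129S1/SvImJ and 1.74 (standard error 0.62, adjusted p = 0.214) against NOD/ShiLtJ females, where 1.23% of genes were called in each. DESeq2 gave adjusted p of 0.291 and 0.538. Both comparisons share the WSB/EiJ libraries, which also had the higher fibroblast marker sums given above, with Col1a2, Col12a1, Thy1, Postn and Tnc at 0, and the part of these in the values of Id2 was not tested.

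No member passed a test between strains, and the permutation tests could not pass after adjustment. Id1 had 15.1 CPM in WSB/EiJ, 21.2 in NOD/ShiLtJ females and 3.69 in 129S1/SvImJ, with exact permutation p of 0.733 for WSB/EiJ against NOD/ShiLtJ and 0.4 against 129S1/SvImJ. Id3 had 14.1, 17.0 and 3.69 CPM (exact permutation p = 0.8 and 0.333), and Id4 had 15.9, 3.03 and 0 (exact permutation p = 0.533 and 0.533). Between NOD/ShiLtJ females and 129S1/SvImJ, both NOD/ShiLtJ clones were above both 129S1/SvImJ clones for Id3, as in 15.6% of genes with a count, and 0.333 is the smallest p that 2 against 2 allows. After adjustment over the 22 permutation tests no p was below 0.88.

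The 129S1/SvImJ male clones 1 and 17 were measured in both media. Id1 had 15 counts in clone 1 in ESC/LIF and 0 in the same clone in 2iS, and clone 17 had 0 and 1, so the clones went in opposite directions. The mean was 3.61 CPM in 2iS and 32.2 in ESC/LIF (exact permutation p = 1), and edgeR without the filter gave a log2 fold change of -3.29 (standard error 1.10, adjusted p = 0.13, where 1.4% of genes were called). For Id2 clone 1 had 4 counts in ESC/LIF and 1 in 2iS, and clone 17 had 2 in both media, with means of 11.5 CPM in 2iS and 19.5 in ESC/LIF. Both libraries in 2iS were below both in ESC/LIF, as in 18.1% of genes with a count (exact permutation p = 0.333, the smallest possible). The permutation tests between media did not use the pairing by clone. For clone 17 the same 2 counts gave a lower CPM in 2iS because its gene total was larger there, 135076 against 92996. Id3 had 3.61 CPM in 2iS and 5.46 in ESC/LIF, and Id4 had 0 and 2.15 (exact permutation p = 1 for both). Passage changes with the medium in these clones, and the effects of both cannot be told apart.

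All 4 members were detected in the NOD/ShiLtJ male iPSC. Clones 3 and 35 had 6 and 21 counts of Id1, 10 and 25 of Id2, 2 and 9 of Id3 and 13 and 7 of Id4. Scaled to gene counts, Id2 pooled to 35.1 CPM (24.4 to 48.8), beside 35.5 in the 12 other iPSC, Id1 to 27.1 beside 21.4 and Id3 to 11.03 beside 11.3, while Id4 pooled to 20.05 (12.2 to 30.96) beside 6.77 (3.50 to 11.8). Scaled to 1000000 uniquely aligned read pairs the values differed, as more of the pairs in these libraries lay on genes. Id2 was then at 1.97 beside 0.534, and Id4 at 1.12 beside 0.102. Which of the scales is right for these libraries was not tested.

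Per kilobase of exon, Id2 and Id1 had the highest values of the 4 members in the 12 iPSC. Few of the aligned read pairs were counted on genes, and over the 19 libraries Gapdh had 0 to 27 counts and Actb 54 to 1467. Whether these values rank the transcript levels of different genes was not tested. Id2 had 15.9 ± 14.3 CPM per kilobase (SD, n = 12), Id1 14.98 ± 17.8, Id3 6.02 ± 5.28 and Id4 2.04 ± 3.35. The ranges of all 4 overlapped, and those of Id1, Id3 and Id4 included 0.

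Correlations between members were weak across the 17 libraries. Pearson's r of log2 CPM was 0.37 for Id2 and Id4, 0.36 for Id1 and Id2, 0.24 for Id2 and Id3, 0.17 for Id1 and Id3, 0.02 for Id1 and Id4 and 0.00 for Id3 and Id4. These are descriptions over libraries that share strains and lines, at counts where 1 read pair moves a value. The genes with a pattern most like that of Id2 were Eif3g (r = 0.86), a translation initiation factor subunit, Zc3h15 (0.85), Ebna1bp2 (0.82), Supt6 (0.81), a transcription elongation factor, and Pou5f1 (0.79), a core pluripotency factor that is also one of the reprogramming factors. For Id1 the closest were Tnpo2 (0.66), Ythdf1 (0.66), Isg20l2 (0.60), Tceb1 (0.59) and Trap1 (0.58). For Id3 they were Cct7 (0.74), Hnrnpf (0.73), Smg5 (0.73), Ikbkap (0.70) and Cdc5l (0.68). The genes named are those of highest r among 3985 compared with Id2 and 3986 compared with each of Id1 and Id3. How high r can reach by chance among so many genes over 17 libraries was not tested. The lists are therefore a description and do not show that these genes vary together with a member.

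Of the E proteins, the partners that Id proteins bind, Tcf3, which encodes E2A, was the only one of 3 to pass the filter. It had 70.2 ± 17.5 CPM in iPSC (SD, n = 12), 97.6 ± 17.9 in ESC (SD, n = 3) and 109 ± 62.9 in EpiSC (SD, n = 2), and its log2 fold change in iPSC was -0.46 against ESC (edgeR adjusted p = 0.405) and -0.67 against EpiSC (adjusted p = 0.119). The 3 E proteins together had 344 raw counts in the 17 libraries and the 4 Id genes 143, neither scaled to gene length. None of 22 tissue-specific bHLH factors, which Id proteins hold back, could be tested, with 127 counts in all, 42 of them on Tcf15.

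The pathway upstream was also mostly below the filter. None of 10 BMP ligands (66 counts) and none of 6 SMAD proteins (236 counts) was tested. Of 7 BMP receptors the type II receptor Acvr2a was, at 259 ± 81.9 CPM in iPSC, 228 ± 55.7 in ESC and 376 ± 72.4 in EpiSC, and it passed the threshold in none of the 7 comparisons, in which 28.3% (iPSC against EpiSC), 15.1% (ESC against EpiSC), 6.22% (iPSC against ESC), 8.89% (media), 2.77%, 4.04% and 2.24% (strains) of genes were called. Of 7 other BMP targets only Dusp9, a phosphatase that acts on ERK, was tested, and it passed in none of 6 comparisons. In the contrast of media it was below the filter, with 14 and 7 counts in clones 1 and 17 in ESC/LIF and 0 in both in 2iS. Such a separation, with both libraries in 2iS below both in ESC/LIF, was present in 18.1% of genes with a count. Among 9 BMP inhibitors only Smurf1, a ubiquitin ligase that targets SMADs and BMP receptors, passed the filter. It did so only through WSB/EiJ clones 12, 23 and 28 (422, 157 and 483 CPM). The NOD/ShiLtJ female and 129S1/SvImJ iPSC were at 41.1 CPM or less. Its fold changes between strains are therefore a description without a test. Smurf1 was higher in WSB/EiJ iPSC than in NOD/ShiLtJ females (log2 fold change 3.26, standard error 0.65, where 2.77% of genes were called) and than in 129S1/SvImJ iPSC in 2iS (2.96, standard error 0.67, where 4.04% were called). Strain cannot be told apart here from sex, derivation medium and passage. Its counts were 80, 15, 4 and 52 in WSB/EiJ clones 12, 23, 25 and 28, 4 and 6 in NOD/ShiLtJ clones 7 and 52 and 5 and 4 in 129S1/SvImJ clones 1 and 17, so clones 12 and 28 held most of them. The log2 fold change was 2.88 without NOD/ShiLtJ clone 7, and against 129S1/SvImJ it was 3.20 without clone 1 and 2.69 without clone 17.

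A list of 9 Hes, Hey and related repressors, bHLH proteins of the same superfamily, was also followed. Bhlhe40, a related gene and itself neither Hes nor Hey, alone passed the filter. It was lower in iPSC than in ESC, where Id2 was higher. It had 9, 6 and 18 counts in the NOD/ShiLtJ, WSB/EiJ and 129S1/SvImJ ESC and 0 to 5 in each of the 12 iPSC. The log2 fold change was -2.85 (standard error 0.67) with edgeR and -2.98 with DESeq2, in a contrast where 6.22% of genes were called. Bhlhe40 passed the filter only through the ESC, where it was high. Without the NOD/ShiLtJ or the 129S1/SvImJ ESC it no longer passed. Its fold changes are therefore a description without a test. Fibroblast markers were higher in the ESC in the same way, Col1a1 by a log2 fold change of -6.20 in iPSC, and their part in the level of Bhlhe40 was not tested.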

How the data were processed

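The data were 14 iPSC, 3 ESC and 2 EpiSC libraries of RNA-seq. The authors deposited raw counts of read pairs per gene, made with HTSeq (intersection-nonempty) after Trimmomatic and TopHat2 2.1.1 on GRCm38; the strand setting is not given in the sources used here. Conditions were taken from the sample titles, since the source names give the title's condition in 0 of 19 libraries; genes of Chromosome Y went against the sex of no title. The source names were run as an alternative.

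edgeR 4.0.16 under R 4.3.3 was run on the counts (quasi-likelihood test, TMM, filterByExpr), with genes called at a Benjamini-Hochberg adjusted p under 0.05, in 1 fit of 17 libraries for cell states, 1 of 12 iPSC in 4 groups for strains and 1 of 4 libraries for media. DESeq2 1.42.0 was an alternative; the authors used DESeq2. Members below the filter were tested by two-sided exact permutation of mean TMM CPM, and, as an alternative added after seeing the data, by both tools without the filter. Log2 CPM for correlations used a prior count of 2. The replicates are separate clones or lines, except that 129S1/SvImJ clones 1 and 17 enter once per medium (the 12 iPSC libraries are 10 clones), so p-values measure the spread between these.

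The 4 Id genes were named throughout; of every other list, the counts of genes called, up to 3 genes of smallest adjusted p per comparison and defining markers at 0; and for members with at least 20 counts the 5 genes of highest r. Members and lists were chosen with earlier results of these data known. The fits were tested on simulated data. Sequences and positions came from GENCODE M21. The numbers of the 129S1/SvImJ clones pair the same lines across media; the deviations of the pairs from the medium means correlated at 0.067 over 2160 genes, and the fit with the clone as a block is given among the alternatives. Trophectoderm and primitive endoderm markers were also summed: trophectoderm markers were at 20.1 to 183 CPM in the 12 iPSC, 73.6 to 123 in ESC and 54.3 to 397 in EpiSC, primitive endoderm markers at 0 to 16.4, 0 to 6.84 and 0 to 26.1, and primed markers at 98.7 to 332, 253 to 545 and 299 to 360.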

Additional observations from a re-analysis of the deposited data

How the results depend on the processing

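The difference in mean Id2 between iPSC and ESC, 36.9 CPM, stayed between 25.9 and 42.6 CPM under other normalization, with NOD/ShiLtJ male iPSC, in either medium alone and without the 129S1/SvImJ clones in 2iS. Leaving out an ESC cannot change it, as all are at 0. With the conditions of the source names it was -3.96, the opposite direction. Of 220 alternative values of the 28 mean differences of members, 18 changed sign: 6 with the source names, among them Id2 against EpiSC (-3.32 CPM), 1 with aligned read pairs as library size (Id1, ESC against EpiSC, 0.204 CPM) and 11 with 1 library left out. The latter touched 8 differences: Id1 for ESC against EpiSC (without the NOD/ShiLtJ or 129S1/SvImJ ESC or the 129 EpiSC), Id4 for iPSC against ESC, given above, Id1 between media (3.61 CPM in place of -28.6 without clone 1 in ESC/LIF), Id3 between media, Id1 and Id3 for WSB/EiJ against NOD/ShiLtJ females (Id1 15.1 in place of -6.08 without clone 7, Id3 1.75 without clone 28), and Id1 and Id2 for NOD/ShiLtJ females against 129S1/SvImJ (-3.69 and -5.66 without clone 7).

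Counts of genes called, which set the background above, depended on more. Without the filter they were 1874 in place of the 448 higher and 681 lower genes for iPSC against EpiSC, 600 in place of 248 for iPSC against ESC, 193 in place of 94 for WSB/EiJ against NOD/ShiLtJ females and 116 in place of 76 for NOD/ShiLtJ females against 129S1/SvImJ. With the source names they were 10 for iPSC against EpiSC, 0 for ESC against EpiSC (271 at an unadjusted p under 0.05) and 0 for iPSC against ESC (153 at an unadjusted p under 0.05), all from edgeR. With the NOD/ShiLtJ males in the fit, 207 genes in place of 601 differed between ESC and EpiSC. DESeq2 called 47 in place of 192 genes between media and 35 in place of 76 between NOD/ShiLtJ females and 129S1/SvImJ. The contrast of media had 91 genes in the fit of 12 iPSC in 4 groups and 102 with the clone as a replicate block; the block could not change a call of a member, since none passed the filter there. The cause of these moves was not tested.

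Leaving out 1 library at a time gave 585 to 944 genes for iPSC against EpiSC (lowest without the 129 EpiSC), 262 to 595 for ESC against EpiSC (262 without the 129 EpiSC and 370 without the 129S1/SvImJ ESC), 88 to 156 for iPSC against ESC (88, 156 and 133 without the NOD/ShiLtJ, WSB/EiJ and 129S1/SvImJ ESC), 98 to 147 between media (98 and 105 without clone 1 in ESC/LIF and in 2iS), 46 to 96 for WSB/EiJ against NOD/ShiLtJ females (50 and 46 without clones 7 and 52), 42 to 151 for WSB/EiJ against 129S1/SvImJ (42 and 77 without clones 1 and 17) and 28 to 38 for NOD/ShiLtJ females against 129S1/SvImJ, where each of the 4 clones mattered; where 1 library of a group was left, it was assumed to vary like the other groups. Depth limits all members: a count of 3 is 13.2 to 32.3 CPM in the 17 libraries.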
